A study of Mus musculus with 9 samples.

Results

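This account covers 8 genes for the sensing of RNA and the relay of that signal: the cytosolic helicases *Ddx58* (RIG-I), *Ifih1* (MDA5) and *Dhx58* (LGP2), the endosomal receptor *Tlr3*, the adaptors *Mavs* and *Ticam1* (TRIF), and the kinases *Tbk1* and *Ikbke*. They were chosen by name, as the rows of these genes among the 55228 genes of the count table, and all 8 were among the 15253 genes with enough counts to be tested. RNA-seq was performed on 9 cultures of undifferentiated HC11 cells, a mouse mammary epithelial cell line, grown in medium with serum, insulin and EGF and given no further treatment. The design compares wild-type cells with cells edited at *Vangl2*, which encodes a planar cell polarity protein. *WT* is the parental HC11 line (3 cultures). *KD1* and *KD2* (3 cultures each) were made from HC11 cells by nucleofection with Cas9, 1 of 2 different guides against *Vangl2*, and a repair template that carries stop codons. The labels call them Vangl2 knockout 1 and Vangl2 knockout 2. Each edited line grew from single colonies, so that a line is 1 clone and the effect of the edit, of the nucleofection and of cloning cannot be told apart. Cells that were cloned or nucleofected without a guide were not analysed here.

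RIG-I and MDA5 bind double-stranded or otherwise non-self RNA in the cytosol and pass the signal, through their caspase recruitment domains, to MAVS on the outer mitochondrial membrane. TLR3 binds double-stranded RNA in endosomes and signals through TRIF. Both routes converge on the kinases TBK1 and IKK-epsilon, which phosphorylate the transcription factors IRF3 and IRF7 and so turn on type I interferon, and several of the sensors are themselves interferon-induced genes.

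Depth was 19231428 to 28360592 counts per culture, and levels are given as CPM, that is, counts divided by the scaled library size. A floor of detection of 3 counts was 0.0999 to 0.154 CPM. It covers counting error alone, because reads were not tagged as single molecules. The lowest count of any of the 8 genes was 34. The targeted gene, *Vangl2*, had 66, 99 and 86 counts in *WT*, 75, 48 and 69 in *KD1*, and 90, 118 and 90 in *KD2*. The transcript was lower in *KD1* (log2 fold change -0.63, adjusted p = 0.0058 from edgeR, adjusted by Benjamini-Hochberg over all genes tested, as for every adjusted p here), and no change was detected in *KD2* (0.05, adjusted p = 0.81). The edit places stop codons in the coding sequence, so that these counts do not check the labels by themselves. *KD2* replicate 3 and *WT* replicate 1 stood apart from the other cultures of their lines. The chi-square per degree of freedom over genes was 17.4 and 22.1 between *KD2* replicate 3 and the other *KD2* cultures and 1.74 between those, 13.1 and 10.7 between *WT* replicate 1 and the other *WT* cultures and 3.38 between those, and 1.37 to 1.81 within *KD1*. Without *WT* replicate 1, each of the 8 genes kept its side of the threshold in all 3 comparisons. All 6 epithelial markers were detected in each line, with a summed level of 4818 to 5389 CPM in *WT*, 5464 to 5607 in *KD1* and 2873 to 3564 in *KD2*. Single markers went in both directions: against *WT*, *Krt5* and *Krt14* were lower in *KD2* (-0.96 and -0.90, adjusted p = 1.3e-07 and 4.7e-07), *Krt8* was higher in *KD2* (0.76, adjusted p = 7.4e-06), and *Krt18* was higher in *KD1* (0.71, adjusted p = 2.8e-06). *Cdh1* and *Epcam* were lower in *KD2* (-0.69 and -0.36, adjusted p = 5.3e-08 and 6.4e-04) and higher in *KD1* (0.37 and 0.31, adjusted p = 3.0e-05 and 0.0029). Of 12 immune cell markers, 2 in *WT*, 3 in *KD1* and 4 in *KD2* exceeded 3 counts in any culture, with *Adgre1* and *Nkg7* at 0 in every culture and a summed level of 3.56 to 6.45, 7.42 to 9.08 and 7.48 to 8.62 CPM. *Lyz2* had 31, 41 and 27 counts in *KD2* and at most 1 in the other cultures. Against *WT*, *Itgax* was higher in *KD2* (2.21, adjusted p = 4.9e-06) and lower in *KD1* (-0.98, adjusted p = 0.043). *Cd68* was higher in *KD1* (0.89, adjusted p = 0.0016), with no change detected in *KD2* (-0.02, adjusted p = 0.93). The summed level of 6 fibroblast markers was 14 to 19.8 CPM in *WT*, 8.07 to 10.1 in *KD1* and 87.7 to 97.2 in *KD2*, and that of 4 endothelial markers 2.05 to 2.49, 4.87 to 5.5 and 1.43 to 2.1 CPM. Of the fibroblast markers, *Pdgfrb* carried the sum in *KD2* (66.8 ± 5.02 CPM, against 0.823 ± 0.236 in *WT*, SD, n = 3). *Pdgfra* (16.4 against 7.96 CPM, adjusted p = 1.9e-06) and *Col1a2* (3.09 against 1.17 CPM, adjusted p = 1.9e-04) were also higher in *KD2* than in *WT*. *Col1a1* was lower there (4.38 against 7.03 CPM, adjusted p = 0.0019), and *Dcn* and *Lum* had at most 6 and 3 counts per culture. In *KD1*, *Col1a2* was at 0 in every culture. The part of these marker levels in the results was not tested.

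In *KD1*, 5 of the 8 genes rose and 1 fell against *WT*, at an adjusted p under 0.05. Over all genes tested, 26.9% were higher and 30% lower in this comparison. *Ikbke*, the inducible kinase, rose the most, followed by the helicases *Ifih1* and *Ddx58*, the adaptor *Ticam1* and, by a small margin, *Dhx58*. *Mavs* fell, and no change was detected in *Tlr3* or *Tbk1*. Those past a 2-fold limit were 2 higher (*Ikbke* and *Ifih1*) and 0 lower, where 9.34% of all genes were called higher and 7.49% lower. The median log2 fold change was 0.58 over the 8 genes and -0.03 over all genes tested.

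In *KD2*, 6 of the 8 genes rose and 1 fell against the same *WT* cultures. Here 34% of all genes tested were higher and 33.3% lower. Past 2-fold, 2 were higher (*Ifih1* and *Ddx58*) and 0 lower, where 14.5% of all genes were called higher and 6.71% lower. The median log2 fold change was 0.47 over the 8 genes and 0.01 over all genes. Set directly against *KD1*, *KD2* had more *Ddx58*, *Ifih1* and *Tbk1* transcript and less *Ikbke* and *Ticam1*. These are 3 higher and 2 lower of 8, where 34.8% of all genes were higher and 33% lower. Past 2-fold, 0 were higher and 1, *Ikbke*, was lower, where the shares over all genes were 14.7% and 8.58%. Since both lines were set against the same *WT* cultures, their fold changes are not independent, and they are given side by side.

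**Figure D1:**
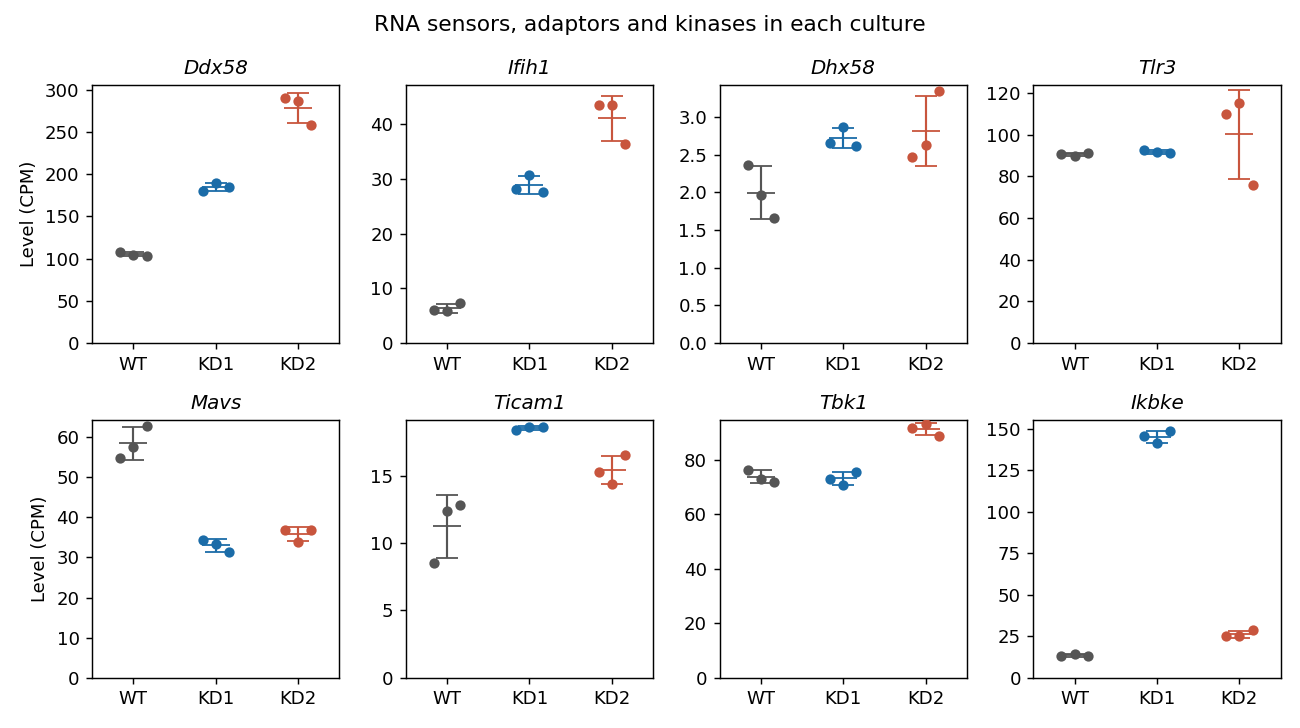
Level of each of the 8 genes in each culture, in CPM on linear axes that start at 0. Points are cultures (3 per line), the long bar is the mean and the whiskers are 1 SD. *Ddx58* and *Ifih1* stood in the order *WT*, *KD1*, *KD2* with no overlap, *Ikbke* stood at 141.3 to 148.4 CPM in *KD1* and at 28.5 CPM or less elsewhere, and *Mavs* was below every *WT* culture in both edited lines.

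Promoters are shown for *Ddx58*, *Ifih1* and *Ikbke*, which rose the most, for *Mavs*, the one that fell, and for *Tlr3*, which holds the one match to the NF-kappa-B motif, so that RNA levels can be set beside the sequence at the start of the gene. Each runs from 250 bases before to 50 bases after the start of the gene in RefSeq (GRCm38.p6), read 5′ to 3′ along the gene. Capitals mark matches to 1 of 4 motifs, searched on both strands: GAAANGAAA and GAAANNGAAA, the repeat bound by interferon regulatory factors with 1 or 2 bases between the GAAA units, GGGANTTTCC, a site of the NF-kappa-B family, and TTCNNNGAA, the site of STAT dimers. The motifs were chosen after these promoters had been read. *Ddx58* lies at chr4:40239776-40240075 on the minus strand, *Ifih1* at chr2:62646206-62646505 on the minus strand, *Ikbke* at chr1:131279514-131279813 on the minus strand, *Tlr3* at chr8:45410331-45410630 on the minus strand and *Mavs* at chr2:131233813-131234112 on the plus strand.
Ddx58: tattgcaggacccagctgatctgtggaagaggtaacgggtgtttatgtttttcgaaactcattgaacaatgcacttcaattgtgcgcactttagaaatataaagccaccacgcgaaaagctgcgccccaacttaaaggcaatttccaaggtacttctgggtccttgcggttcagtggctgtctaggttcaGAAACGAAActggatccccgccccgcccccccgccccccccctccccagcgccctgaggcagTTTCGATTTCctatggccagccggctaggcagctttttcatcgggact
Ifih1: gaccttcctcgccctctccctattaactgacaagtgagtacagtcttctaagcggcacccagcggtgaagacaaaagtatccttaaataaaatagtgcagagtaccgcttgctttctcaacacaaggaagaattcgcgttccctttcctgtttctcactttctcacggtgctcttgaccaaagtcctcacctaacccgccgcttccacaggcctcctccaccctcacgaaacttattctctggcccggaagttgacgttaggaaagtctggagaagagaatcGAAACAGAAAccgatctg
Ikbke: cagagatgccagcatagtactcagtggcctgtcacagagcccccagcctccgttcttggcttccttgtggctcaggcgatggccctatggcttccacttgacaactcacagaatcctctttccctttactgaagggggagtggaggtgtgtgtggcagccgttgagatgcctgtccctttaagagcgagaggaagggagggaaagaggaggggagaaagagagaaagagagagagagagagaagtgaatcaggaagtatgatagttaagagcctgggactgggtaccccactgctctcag
Tlr3: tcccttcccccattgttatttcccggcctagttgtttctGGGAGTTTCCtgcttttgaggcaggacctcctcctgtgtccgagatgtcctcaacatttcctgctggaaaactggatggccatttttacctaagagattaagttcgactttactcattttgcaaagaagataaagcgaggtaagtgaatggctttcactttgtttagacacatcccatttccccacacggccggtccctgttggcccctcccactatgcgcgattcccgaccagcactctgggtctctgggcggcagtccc
Mavs: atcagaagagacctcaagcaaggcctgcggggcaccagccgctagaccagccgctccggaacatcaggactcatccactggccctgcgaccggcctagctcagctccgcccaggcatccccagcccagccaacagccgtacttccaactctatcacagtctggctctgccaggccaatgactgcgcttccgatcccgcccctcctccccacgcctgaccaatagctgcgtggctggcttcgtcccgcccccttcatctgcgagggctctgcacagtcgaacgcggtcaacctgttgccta

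Of the 7 members with a promoter in the table (all but *Dhx58*), 3 held a match. *Ddx58* held GAAACGAAA from 60 to 52 bases before the start and GAAATCGAAA, read on the opposite strand, at bases 3 to 12 of the gene. *Ifih1* held GAAACAGAAA at bases 33 to 42 of the gene. *Tlr3* held GGGAGTTTCC from 211 to 202 bases before the RefSeq start. In GENCODE, the source of the gene positions below, *Tlr3* starts further upstream, at 45411080, so that this window and its match lie inside the gene. None of these matches overlap. No match was found in the windows of *Ikbke*, *Mavs*, *Ticam1* or *Tbk1*, and the STAT motif was in none of the 7. Among 32851 promoters of the same 300 bases, 3.17% held GAAANGAAA, 3.44% GAAANNGAAA, 0.411% GGGANTTTCC and 8.3% TTCNNNGAA. These are matches of letters, and binding at them was not measured.

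*Ddx58* encodes RIG-I, which recognises short double-stranded RNA with a 5′ triphosphate. The gene (ENSMUSG00000040296) lies on chromosome 4 of GRCm38 from 40203773 to 40239828 on the minus strand. Its level was 108.3, 104.5 and 103.5 CPM in *WT*, 180.2, 189.2 and 184.7 in *KD1*, and 290.3, 287.5 and 258.3 in *KD2*. Every *KD1* culture was above every *WT* culture and every *KD2* culture above every *KD1* culture. The mean rose from 105.4 ± 2.51 CPM (SD, n = 3) in *WT* to 184.7 ± 4.49 in *KD1* and 278.7 ± 17.7 in *KD2*. The log2 fold change was 0.81 in *KD1* (SE 0.0596, 95% interval 0.68 to 0.94, adjusted p = 4.8e-08) and 1.40 in *KD2* (SE 0.06, 1.27 to 1.53, adjusted p = 2.2e-10), which are 1.75-fold and 2.64-fold. *KD2* exceeded *KD1* by 0.59 on the log2 scale (SE 0.0586, adjusted p = 6.6e-07), or 1.51-fold. Without *KD2* replicate 3, the lowest of its line, the change in *KD2* was 1.48. In these bulk cultures, more cells that express a gene and more RNA per cell cannot be told apart.

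*Ifih1* encodes MDA5, which recognises long double-stranded RNA and shares the helicase fold and the caspase recruitment domains of RIG-I. It lies on chromosome 2 from 62595798 to 62646255 on the minus strand (ENSMUSG00000026896). It had 117, 145 and 149 counts in *WT*, 763, 780 and 686 in *KD1* and 1077, 1306 and 739 in *KD2*. At the scale of CPM this was 5.99, 5.8 and 7.27, then 28.2, 30.7 and 27.7, then 43.5, 43.5 and 36.4. The lines did not overlap and stood in the same order as for *Ddx58*, but with larger fold changes. The change was 2.19 on the log2 scale in *KD1* (SE 0.106, 95% interval 1.96 to 2.41, adjusted p = 5.2e-10) and 2.70 in *KD2* (SE 0.105, 2.47 to 2.93, adjusted p = 9.3e-11), which are 4.55-fold and 6.5-fold. The lines differed by 0.51 (SE 0.0874, adjusted p = 1.3e-04). In that comparison, 8 tested genes within 2 Mb had a median of 0.28, and the 1129 tested genes of chromosome 2 had 0.32. Over all genes the median was 0.02. The part of this shift in the value of *Ifih1* was not tested. The 2-base match of *Ifih1* to the repeat of interferon regulatory factors lies inside the first 50 bases of the gene, whereas those of *Ddx58* lie on either side of the start.

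*Dhx58* encodes LGP2, the third helicase of the family, which has no caspase recruitment domains and modulates the other two. It lies on chromosome 11 from 100694884 to 100704271 on the minus strand (ENSMUSG00000017830). It was the scarcest of the 8, with 46, 49 and 34 counts in *WT*, 72, 73 and 65 in *KD1*, and 61, 79 and 68 in *KD2*. The means were 1.99 ± 0.349, 2.72 ± 0.134 and 2.81 ± 0.468 CPM (SD, n = 3). All *KD* cultures were above all *WT* cultures, the closest being 2.47 CPM in *KD2* and 2.36 in *WT*. It rose by 0.45 on the log2 scale in *KD1* (SE 0.178, 95% interval 0.07 to 0.83, adjusted p = 0.045) and by 0.49 in *KD2* (SE 0.179, 0.10 to 0.87, adjusted p = 0.027). Both calls were close to the threshold, and without *WT* replicate 1 the values were 0.58 and 0.61. Of 16 alternative settings, 9 ended the call in *KD1* (adjusted p 0.02 to 0.13 over all 16), among them leaving out *WT* replicate 2 or 3 (0.46 and 0.36) or *KD1* replicate 1, 2 or 3 (0.47, 0.41 and 0.48), and 5 ended that in *KD2* (0.009 to 0.084), among them leaving out *WT* replicate 2 or 3 (0.50 and 0.40) or *KD2* replicate 3 (0.39). Part of its exons, 141 bases, overlaps the antisense gene *Dhx58os*, which had at most 2 counts per culture.

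No change was detected in *Tlr3*, the endosomal receptor, in either line with all cultures in the fit. It lies on chromosome 8 from 45395665 to 45411080 on the minus strand (ENSMUSG00000031639). Its level was 90.8, 89.8 and 91.2 CPM in *WT*, 92.8, 91.4 and 91.1 in *KD1*, and 109.9, 114.9 and 75.7 in *KD2*. The *WT* and *KD1* cultures lay within a few CPM of each other, whereas the *KD2* cultures fell on both sides of them. The difference from *WT* was 0.02 on the log2 scale in *KD1* (95% interval -0.23 to 0.26, adjusted p = 0.9) and 0.15 in *KD2* (-0.10 to 0.39, adjusted p = 0.26). One culture decided the value in *KD2*: without replicate 3, *KD2* exceeded *WT* by 0.34 (adjusted p = 1.9e-06) and *KD1* by 0.30 (adjusted p = 6.4e-06). In that culture *Tlr3* deviated by -0.57 on the log2 scale from the mean of the other *KD2* cultures. Over all genes, deviations of that culture ran with exon length, with a median of 0.12 over the 3764 genes with the shortest exons and -0.13 over the 3761 with the longest, and the same medians of the other 8 cultures lay between -0.06 and 0.07. The part of this trend in the value of *Tlr3* was not tested. An antisense gene, *Gm45542*, overlaps 381 bases of its exons and had at most 5 counts per culture.

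The adaptors of the 2 routes moved in opposite directions. *Mavs*, the adaptor of RIG-I and MDA5, lies on chromosome 2 from 131234063 to 131248025 on the plus strand (ENSMUSG00000037523). Its level was 54.9, 57.6 and 62.8 CPM in *WT*, 34.4, 33.4 and 31.3 in *KD1*, and 36.9, 33.8 and 36.8 in *KD2*. No culture of either edited line reached the lowest *WT* culture. From 58.4 ± 4.01 CPM (SD, n = 3) in *WT*, the mean was 33 ± 1.55 in *KD1* and 35.8 ± 1.8 in *KD2*. On the log2 scale the change was -0.82 in *KD1* (SE 0.0696, 95% interval -0.97 to -0.67, adjusted p = 2.1e-07) and -0.71 in *KD2* (SE 0.0694, -0.86 to -0.56, adjusted p = 7.6e-07), which are 1.77-fold and 1.63-fold lower. The edited lines overlapped, and no difference between them was detected (0.12, 95% interval -0.04 to 0.27, adjusted p = 0.16). Both helicases that carry caspase recruitment domains were thus higher, and the adaptor that they share lower, in each edited line.

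*Ticam1* encodes TRIF, the adaptor of TLR3. It lies on chromosome 17 from 56269319 to 56276786 on the minus strand (ENSMUSG00000047123). Its level was 8.55, 12.4 and 12.8 CPM in *WT*, 18.4, 18.6 and 18.6 in *KD1*, and 15.3, 14.4 and 16.5 in *KD2*. The lines did not overlap, and *WT* replicate 1 was low. It rose by 0.71 on the log2 scale in *KD1* (SE 0.119, 95% interval 0.46 to 0.97, adjusted p = 1.6e-04) and by 0.44 in *KD2* (SE 0.122, 0.18 to 0.70, adjusted p = 0.0053). Without that *WT* culture the values were 0.56 and 0.28, and both passed. *KD2* was lower than *KD1* by a small margin (-0.27, 95% interval -0.52 to -0.02, adjusted p = 0.0495). That call was lost under 10 of 16 alternative settings, with values of -0.31 to -0.15 and adjusted p from 0.0051 to 0.28, among them leaving out *WT* replicate 2 or 3 (-0.27 each), *KD1* replicate 1, 2 or 3 (-0.28 each), *KD2* replicate 1 (-0.27) or *KD2* replicate 2 (-0.23).

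The kinases diverged the most. *Tbk1*, which is expressed in most cell types without induction, lies on chromosome 10 from 121546455 to 121586787 on the minus strand (ENSMUSG00000020115). Its level was 76.4, 73 and 72 CPM in *WT*, 73, 70.8 and 75.7 in *KD1*, and 91.8, 93.3 and 88.8 in *KD2*. The *WT* and *KD1* cultures overlapped, and every *KD2* culture was above all of them. The change was -0.01 in *KD1* on the log2 scale (95% interval -0.13 to 0.11, adjusted p = 0.88) and 0.31 in *KD2* (SE 0.0562, 0.19 to 0.43, adjusted p = 2.5e-04), or 1.24-fold. *KD2* exceeded *KD1* by 0.32 (SE 0.0559, adjusted p = 1.6e-04).

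*Ikbke* encodes IKK-epsilon, the close relative of TBK1 whose gene is induced by NF-kappa-B and interferon signals. It lies on chromosome 1 from 131254343 to 131279606 on the minus strand (ENSMUSG00000042349). It had 250, 352 and 270 counts in *WT*, 3948, 3593 and 3679 in *KD1*, and 622, 752 and 580 in *KD2*. In CPM these were 12.8, 14.1 and 13.2, then 145.7, 141.3 and 148.4, then 25.1, 25 and 28.5. The lines did not overlap and stood in the order *WT*, *KD2*, *KD1*, with *KD2* much closer to *WT* than to *KD1*. The log2 fold change was 3.44 in *KD1* (SE 0.0727, 95% interval 3.28 to 3.60, adjusted p = 1.1e-13), or 10.8-fold. In *KD2* it was 0.97 (SE 0.0746, 0.81 to 1.13, adjusted p = 6.7e-08), or 1.96-fold, so that it passed the test and fell just short of the 2-fold limit. It was past that limit with library size alone (1.08), with a filter of at least 10 counts per culture (1.04), without *WT* replicate 2 (1.03) and without *KD2* replicate 2 (1.00 after rounding), which made 3 of the 8 genes past 2-fold in *KD2* in place of 2. *KD2* was lower than *KD1* by 2.47 on the log2 scale (-2.47, SE 0.0672, 95% interval -2.62 to -2.33, adjusted p = 7.0e-13), a 5.54-fold difference. An antisense gene, *Gm28914*, overlaps 159 bases of its exons and had 0, 0 and 0 counts in *WT*, 9, 6 and 10 in *KD1*, and 2, 2 and 1 in *KD2*. Since the strand setting of the counting is not stated, reads of a gene and its antisense partner cannot be told apart, but the antisense counts were few beside those of *Ikbke*.

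**Figure D2:**
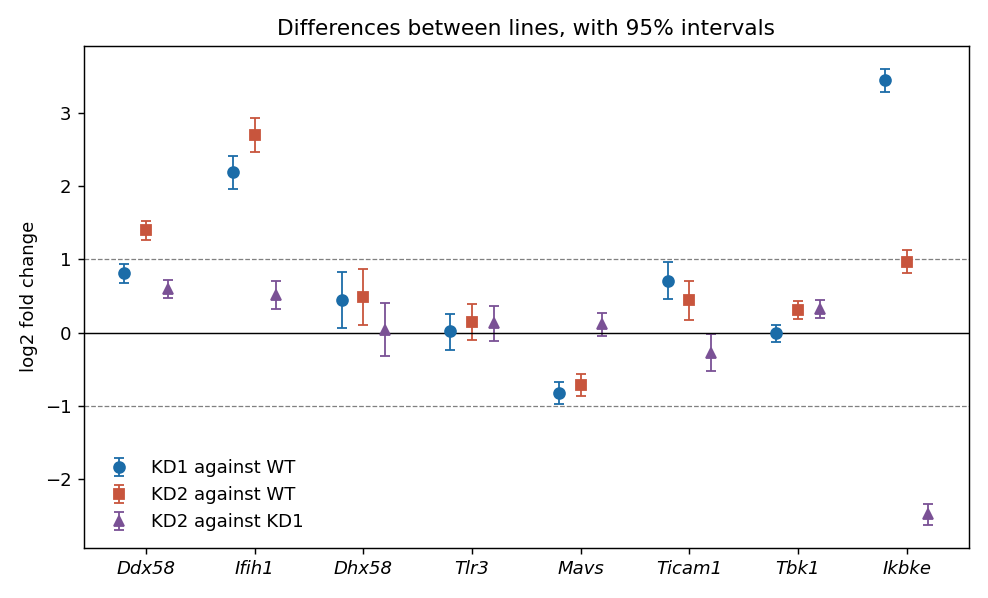
Log2 fold change of each gene in *KD1* against *WT* (circles), *KD2* against *WT* (squares) and *KD2* against *KD1* (triangles), with 95% intervals from edgeR on 3 cultures per line. Dashed lines mark the 2-fold limit. *Ikbke* spans 3.44 to -2.47, the intervals of *Mavs* against *WT* lie wholly below 0, and those of *Tlr3* include 0 in all 3 comparisons.

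Levels of different genes were compared only per length, as CPM per kilobase of all annotated exons. In *WT*, *Tbk1* (18.9 ± 0.591 CPM per kilobase, SD, n = 3), *Mavs* (17.5 ± 1.2) and *Tlr3* (17.4 ± 0.14) came first, and neighbours among these overlapped. *Ddx58* followed at 15 ± 0.357. A gap separated them from *Ticam1* at 3.76 ± 0.785 and *Ikbke* at 1.48 ± 0.0726. *Ifih1* (0.778 ± 0.0982) and *Dhx58* (0.609 ± 0.107) were lowest and overlapped. Parental cells therefore held the transcripts of RIG-I, TLR3, MAVS and TBK1 at 15 to 18.9 CPM per kilobase, with the other helicases and the inducible kinase far below.

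In *KD1* the order was *Ddx58* at 26.2 CPM per kilobase, *Tbk1* at 18.7, *Tlr3* at 17.6, *Ikbke* at 16.1, *Mavs* at 9.87, *Ticam1* at 6.2, *Ifih1* at 3.53 and *Dhx58* at 0.83, and no neighbours overlapped. In *KD2* it was *Ddx58* at 39.5, *Tbk1* at 23.4, *Tlr3* at 19.2, *Mavs* at 10.7, *Ticam1* at 5.15, *Ifih1* at 5.04, *Ikbke* at 2.91 and *Dhx58* at 0.86, with overlap between *Ticam1* and *Ifih1*. *Ddx58* thus stood below *Tbk1*, *Mavs* and *Tlr3* in *WT* and above them in both edited lines. The annotation lists long exons for some of these genes, so the levels were also divided by the longest principal transcript, a choice made after seeing the data. On that scale *Ddx58* was first in *WT* too (27.2), followed by *Tbk1* at 24.4, *Tlr3* at 20.6 and *Mavs* at 19.1, of which the last pair overlapped. In *KD1*, *Ikbke* came next after *Ddx58* (44.6 and 47.7). In *KD2*, *Ikbke* at 8.07 and *Ifih1* at 7.52 overlapped, and both were above *Ticam1* at 5.15. The order within a line therefore depends on which exons are counted as the length, whereas the differences between lines do not.

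**Figure D3:**
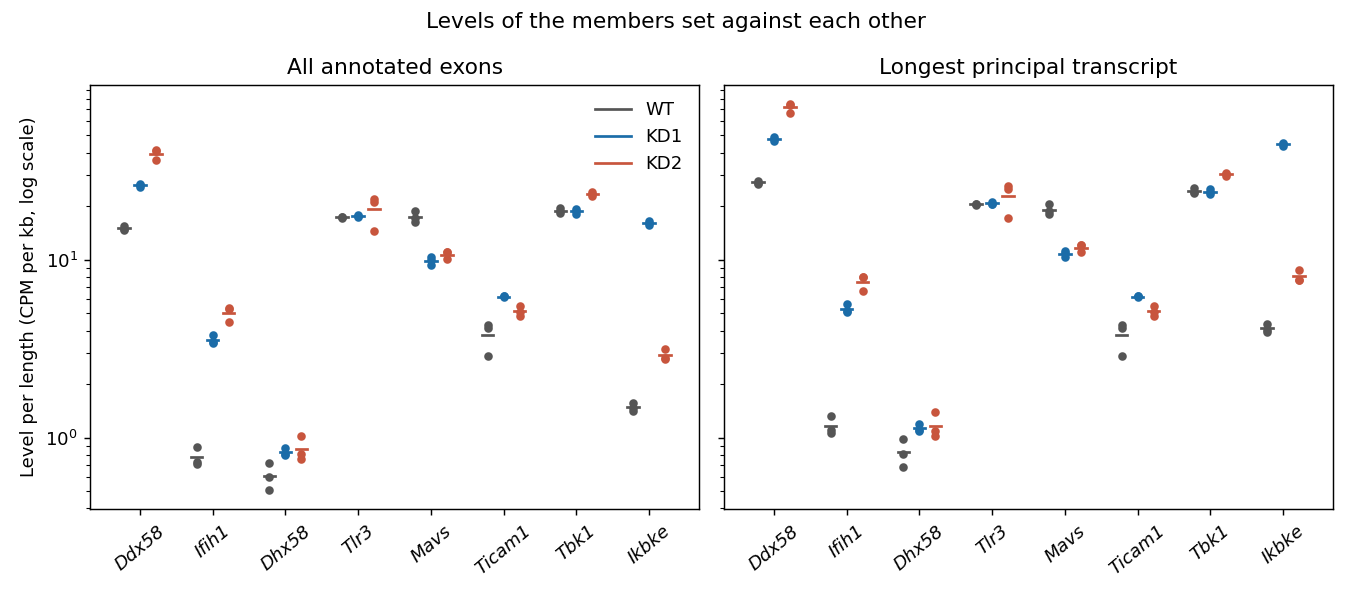
Level per length of the 8 genes in each culture (points; bars are line means), in CPM per kilobase on a log axis, with all annotated exons as the length (left) and with the longest principal transcript (right). In both panels *Ikbke* in *KD1* stands beside *Tbk1* or above it, and *Dhx58* is at or near the bottom in every line.

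Ratios within a culture describe how the balance of partners differed, here per kilobase of all annotated exons. The ratio of *Ikbke* to *Tbk1* was 0.0727, 0.0837 and 0.0794 in *WT*, 0.866, 0.865 and 0.85 in *KD1*, and 0.119, 0.116 and 0.139 in *KD2*. With the principal transcript as the length the means were 0.169, 1.85 and 0.268, so that *KD1* held about as much or more of the inducible kinase than of the constitutive one, depending on the length used. The ratio of *Ddx58* to *Mavs*, helicase to adaptor, was 0.936, 0.862 and 0.782 in *WT*, 2.49, 2.69 and 2.8 in *KD1*, and 3.73, 4.04 and 3.33 in *KD2*. The lines did not overlap, and the smallest two-sided p that an exact test of 3 against 3 cultures can give is 0.1. The ratio of *Ifih1* to *Ddx58* had means of 0.0521 ± 0.00741 in *WT*, 0.135 ± 0.00532 in *KD1* and 0.127 ± 0.00494 in *KD2* (SD, n = 3), and each *KD* culture was above each *WT* culture. That of *Dhx58* to *Ddx58* went from 0.0406 ± 0.00617 to 0.0317 ± 0.00106 and 0.022 ± 0.00519. For *Ticam1* to *Tlr3* the means were 0.216 ± 0.0454, 0.352 ± 0.00597 and 0.28 ± 0.0866, and *KD2* overlapped both other lines.

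The genes around each member on its chromosome were read as a measure of the region. Within 2 Mb of *Ikbke*, 40 tested genes had a median log2 fold change of 0.26 in *KD1* and 0.09 in *KD2*, where *Ikbke* itself had 3.44 and 0.97. Around *Ifih1*, 8 genes had medians of 0.21 and 0.33, and around *Ddx58*, 29 genes had 0.25 and 0.26. Around *Mavs*, 47 genes had a median of -0.32 in *KD1* and -0.01 in *KD2*, beside its own -0.82 and -0.71. The small rise of *Dhx58* in *KD1* (0.45) stood beside a median of 0.28 over 101 neighbours, and the rise of *Ticam1* in *KD2* (0.44) beside 0.30 over 50 neighbours. In the other line, the rise of *Dhx58* in *KD2* (0.49) stood beside 0.05, and that of *Ticam1* in *KD1* (0.71) beside 0.03. *Tbk1* in *KD2* (0.31) stood beside -0.08 over 21 neighbours. Over whole chromosomes, the medians in *KD1* and *KD2* were -0.16 and 0.14 on chromosome 2 (*Ifih1* and *Mavs*) and 0.01 and 0.28 on chromosome 17 (*Ticam1*). They were 0.01 and 0.15 on chromosome 4, 0.15 and 0.09 on 11, and -0.16 and -0.15 on 10. On chromosomes 1 and 8 they were -0.05 and 0.14, then -0.26 and -0.19. Over all genes they were -0.03 and 0.01. The part of these shifts in the values of the members was not tested. Copy number was not measured.

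The genes whose log2 CPM was most like that of each member over the 9 cultures were ranked by Pearson correlation among 11321 candidates. The 9 points share 3 lines, so that a high value reflects mostly the means of the lines. For *Ikbke* these were *Acod1*, which encodes the enzyme that makes itaconate, and *Nod2*, a sensor of bacterial wall fragments (both 0.999). *Acod1* rose from 0.654 ± 0.0827 CPM in *WT* to 214.9 ± 8.06 in *KD1* and 3.38 ± 0.657 in *KD2* (SD, n = 3), and so shared the order of the lines. For *Ifih1* they were *Abcb1a*, a drug efflux pump (0.999), and *Parp12*, an interferon-induced ADP-ribosyltransferase (0.997). *Parp12* had 28.6 ± 1.13, 67.6 ± 1.14 and 77.9 ± 2.35 CPM. For *Ddx58* they were *Enah*, an actin regulator (0.999), and *Adgrg6*, an adhesion receptor (0.998). *Mavs* was closest to *Zfp395* (0.995) and *Rtf2* (0.991), *Tbk1* to *Dmxl2* (0.996) and *Gm12258* (0.992), and *Ticam1* to *Zfyve19* (0.978) and *Atp6v0e2* (0.977). For *Tlr3*, *U2surp* had 0.979, and its level also spread in *KD2*, and *Dhx58*, with the fewest counts, was closest to *D430018E03Rik* (0.946) and *Mad2l2* (0.943).

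The genes that act around the sensors were counted from lists by role. Beside these counts, 26.9% of all genes tested were higher and 30% lower in *KD1*, and 34% and 33.3% in *KD2*, with medians of -0.03 and 0.01. Of 15 activators of the helicases and MAVS, 13 were tested, of which 7 rose and 0 fell in *KD1*, and 5 rose and 6 fell in *KD2* (median log2 fold changes of 0.14 and -0.05). The 0 is from edgeR, DESeq2 also gave 0, and 1 was lower at an unadjusted p under 0.05. *Ddx60*, a helicase that has been described as a cofactor of RIG-I, rose by far the most, from 14, 17 and 18 counts in *WT* to 382, 381 and 405 in *KD1* and 667, 736 and 379 in *KD2*. Its log2 fold changes were 4.32 and 4.95 (adjusted p = 2.3e-10 and 7.4e-11). Of the ubiquitin ligases of RIG-I in the list, *Rnf135* rose by 0.70 and 0.71 (adjusted p = 1.4e-04 and 9.4e-05) and *Trim25* by 0.56 and 0.27 (adjusted p = 1.4e-06 and 8.5e-04). *Mex3c*, another of them, had a value of -0.09 in *KD1* (adjusted p = 0.33) and fell by 0.23 in *KD2* (adjusted p = 0.015). *Trim14*, a partner of MAVS, rose by 1.13 and 1.24 (adjusted p = 2.0e-05 and 6.0e-06). *Zcchc3* was listed at 0 in every culture and *Trim31* had at most 3 counts.

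All 17 inhibitors were tested, and they moved in both directions: 7 rose and 5 fell in *KD1*, and 4 rose and 8 fell in *KD2*, with medians of 0.10 and 0.01. Over all genes, 26.9% and 30% did so in *KD1* and 34% and 33.3% in *KD2*. Without *WT* replicate 3, 3 fell in *KD1*. *Nlrc5*, which restrains RIG-I and MDA5 and also drives MHC class I genes, had 11, 5 and 3 counts in *WT*, 19, 19 and 15 in *KD1*, and 142, 156 and 134 in *KD2*. The rise was 1.21 on the log2 scale in *KD1* (adjusted p = 0.017) and 4.28 in *KD2* (adjusted p = 1.3e-08). *Nlrc5* had enough counts to be tested only through the edited lines, so that its rise and its part in the counts above are a description. *Tnfaip3* (A20), a ubiquitin-editing enzyme, rose by 1.30 and 0.80 (adjusted p = 1.4e-08 and 2.1e-06). *Pcbp2*, which marks MAVS for degradation, fell together with it, by 0.39 in *KD1* and 0.58 in *KD2* on the log2 scale (adjusted p = 3.3e-05 and 5.8e-07). *Rnf125*, a ubiquitin ligase that acts on RIG-I, had a value of -0.09 in *KD1* (adjusted p = 0.79) and fell by 1.01 in *KD2* (adjusted p = 0.0076). Some inhibitors passed in opposite directions in the 2 lines. *Nlrx1*, a mitochondrial protein that binds MAVS, rose by 0.50 in *KD1* (adjusted p = 0.0016) and fell by 1.27 in *KD2* (adjusted p = 8.6e-07). *Smurf1*, a ubiquitin ligase, rose by 0.97 in *KD1* (adjusted p = 1.2e-08) and fell by 0.50 in *KD2* (adjusted p = 8.6e-06).

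Of 18 partners downstream of MAVS and TRIF, 16 were tested, of which 7 rose and 1 fell in *KD1*, and 8 rose and 3 fell in *KD2* (medians of 0.02 and 0.10), where the shares over all genes were 26.9% and 30%, then 34% and 33.3%. Without *WT* replicate 3 or *KD1* replicate 3, 0 fell in *KD1* by edgeR, whereas with all cultures DESeq2 also gave 1. The transcription factors at the end of the route differed. *Irf3*, which most cells hold ready, was at 41.9 ± 2.44 CPM in *WT*, 42.1 ± 1.53 in *KD1* and 42.9 ± 5.06 in *KD2* (SD, n = 3), with differences from *WT* of 0.01 and 0.03 on the log2 scale (adjusted p = 0.95 and 0.78). *Irf7*, which is itself induced by interferon, went from 11, 5 and 7 counts in *WT* to 61, 47 and 50 in *KD1* and 100, 129 and 98 in *KD2*, a rise of 2.51 and 3.60 on the log2 scale (adjusted p = 3.2e-06 and 2.3e-08). *Irf7* had enough counts to be tested only through the edited lines, so that its rise and its part in the counts above are a description. *Traf3*, the ubiquitin ligase that links both adaptors to the kinases, rose by 0.24 and 0.17 (adjusted p = 0.0022 and 0.014). *Casp8* rose in *KD1* by 0.68 (adjusted p = 2.6e-07) and had a value of -0.12 in *KD2* (adjusted p = 0.094), and *KD2* was lower than *KD1* by 0.79 (-0.79, adjusted p = 3.2e-08). *Traf6* had a value of -0.07 in *KD1* (adjusted p = 0.4) and fell by 0.52 in *KD2* (adjusted p = 1.4e-05). *Traf5* had 1 to 8 counts in *WT* and *KD1* cultures and 28 to 36 in *KD2*, with values of -0.62 (adjusted p = 0.43) and 2.29 (adjusted p = 2.8e-04). *Traf5* had enough counts to be tested only through *KD2*, so that its rise there is likewise a description. *Tbkbp1* and *Ticam2* were too low to test.

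Among 15 other RNA sensors and cofactors, 12 were tested, of which 5 rose and 1 fell in *KD1*, and 4 rose and 4 fell in *KD2* (medians of 0.04 and -0.01). In *KD2* the shares of all genes were 34% and 33.3%, and in *KD1* 26.9% and 30%. *Zbp1*, a sensor of nucleic acids in the Z form, went from 2, 3 and 7 counts in *WT* to 391, 383 and 334 in *KD1* and 126, 144 and 118 in *KD2* (6.24 and 4.78 on the log2 scale, adjusted p = 1.8e-11 and 2.0e-09). *Zbp1* had enough counts to be tested only through the edited lines, so that its rise and its part in the counts above are a description. *Nod2* rose by 4.12 and 0.99 (adjusted p = 4.1e-13 and 6.7e-06). *Eif2ak2* (PKR), the kinase that halts translation on double-stranded RNA, rose by 0.67 and 0.87 (adjusted p = 1.2e-05 and 6.5e-07). *Ddx21*, a nucleolar helicase, fell by 0.45 and 0.76 (adjusted p = 1.3e-05 and 5.2e-08). The endosomal sensors *Tlr7* and *Tlr8* had at most 6 counts and 1 count per culture and were too low to test.

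Of 10 genes for cytosolic DNA sensing, 8 were tested, of which 3 rose and 2 fell in *KD1*, and 3 rose and 5 fell in *KD2* (medians of -0.06 and -0.25), beside shares over all genes of 26.9% and 30% in *KD1* and 34% and 33.3% in *KD2*. Without *WT* replicate 2 or 3, or without *KD2* replicate 1 or 2, 3 fell in *KD2*. *Tmem173* (STING), the adaptor that also signals through TBK1, had 28, 71 and 41 counts in *WT*, 401, 407 and 380 in *KD1*, and 142, 130 and 111 in *KD2*. It rose by 2.84 and 1.26 on the log2 scale (adjusted p = 5.8e-09 and 5.0e-05), and *KD2* was 1.58 lower than *KD1* (-1.58, adjusted p = 4.0e-07). The enzyme upstream of it, *Cgas*, had small changes of 0.15 in *KD1* (adjusted p = 0.03) and -0.14 in *KD2* (adjusted p = 0.047). *Ifi204*, which has close relatives in its gene cluster so that its counts are uncertain, rose by 2.08 and 1.80 (adjusted p = 3.1e-09 and 1.7e-08). The subunit genes of RNase H2, which removes RNA from DNA, were lower in *KD2*: *Rnaseh2a* by 0.66 and *Rnaseh2b* by 1.01 (-0.66 and -1.01, adjusted p = 2.3e-06 and 6.5e-08), where *KD1* had -0.39 and -0.14 (adjusted p = 3.3e-04 and 0.12).

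Of the genes that such sensing is known to induce, those tested were higher in both lines, but the 4 interferon genes of the list were hardly detected. *Ifnb1* had 0, 0 and 0 counts in *WT*, 1, 0 and 0 in *KD1*, and 2, 1 and 1 in *KD2*, all within the floor of 3 counts. *Ifna4* and *Ifnl3* were at 0 throughout, and *Ifnl2* had 1 count in a *WT* culture. The other 7 of 11 genes were tested, and all 7 rose in each line, with medians of 3.18 in *KD1* and 2.78 in *KD2*, and 6 past 2-fold in each. Over all genes, 26.9% rose in *KD1* and 34% in *KD2*, and 9.34% and 14.5% did so past 2-fold. Some of the 7, among them *Rsad2* and *Ccl5* with 2 to 8 counts per *WT* culture, met the expression filter only through the edited lines. The count of 7 and the medians are thus set in part by that filter and by a list chosen with earlier results known. They are given as a description. *Rsad2* (viperin) went from 5, 7 and 3 counts to 755, 708 and 656 in *KD1* and 88, 132 and 83 in *KD2*, a rise of 6.86 and 4.09 on the log2 scale (adjusted p = 3.8e-13 and 1.6e-09). *Ccl5* had 6.60 and 2.78 (adjusted p = 7.2e-12 and 4.5e-06), and *Ifit1*, which has close paralogs, 5.91 and 3.59 (adjusted p = 6.7e-12 and 1.0e-08). *Isg15* stood apart in its order, with 3.18 and 3.66 (adjusted p = 8.0e-10 and 2.2e-10) and a *KD2* level above that of *KD1* by 0.48 (adjusted p = 0.0016). *KD2* was lower than *KD1* for 5 of the 7 and higher for 1, where 33% of all genes tested were lower and 34.8% higher. *Rsad2*, *Ccl5* and *Ifit1* were thus highest in *KD1*, as *Ikbke* was, and *Isg15* in *KD2*, as *Ddx58* and *Ifih1* were.

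**Figure D4:**
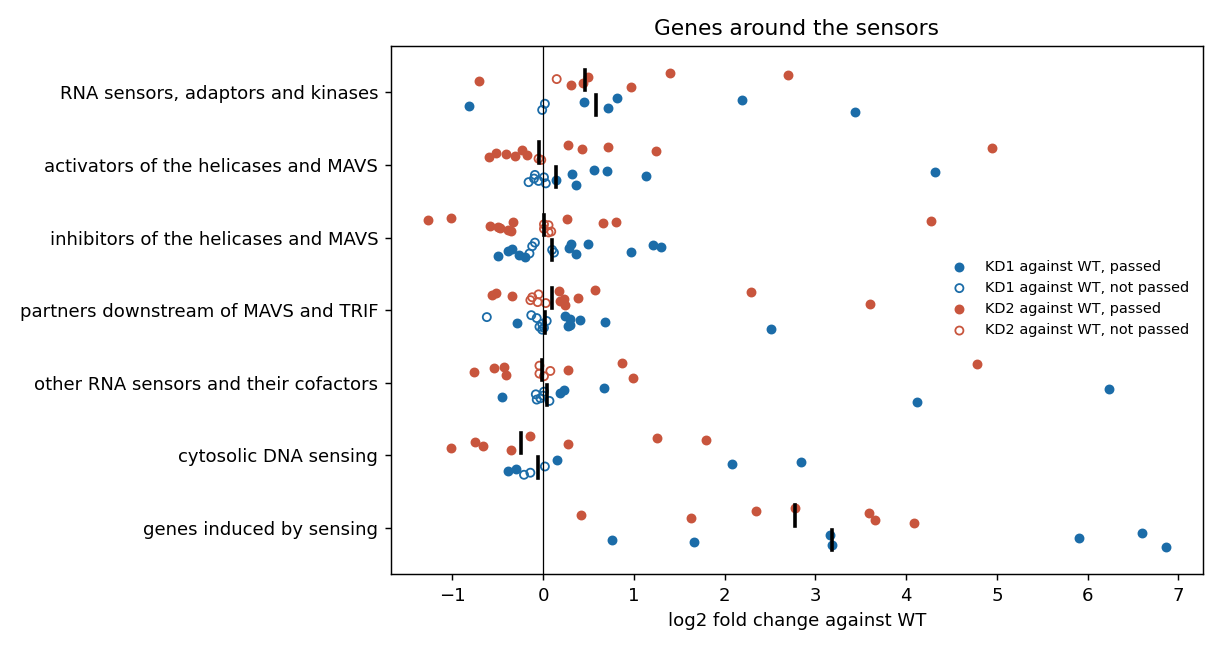
Log2 fold change against *WT* of every tested gene in the 8 members (top row) and in the lists around them, in *KD1* (blue) and *KD2* (red). Filled points passed at an adjusted p under 0.05 (edgeR), open points did not, and black bars are list medians. The lists of regulators lie on both sides of 0 with medians from -0.25 to 0.14. The tested genes induced by sensing, some of which met the expression filter only through the edited lines, lie wholly above 0. In the other lists, *Irf7*, *Zbp1* and *Nlrc5* also met that filter only through the edited lines, and *Traf5* only through *KD2*.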

How the data were processed

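The authors deposited raw counts of reads per gene for 9 HC11 cultures, 3 per line, which were mapped by the labels, with 0 columns left over. Before that, the authors trimmed and filtered paired reads of poly-A RNA (fastp), aligned them to GRCm38 (HISAT2) and took counts per gene over exons (featureCounts of Subread); versions, the strand setting and the handling of reads that map to several places are not given in the sources used here. The labels state that lysates were flash frozen, whereas the methods state that they were not. Nothing states that the cultures were grown independently, so p-values measure the spread between these cultures.

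Counts were tested with the quasi-likelihood test of edgeR 4.0.16 (R 4.3.3, limma 3.58.1) in 1 fit of all 9 cultures, with TMM scaling, edgeR's expression filter and Benjamini-Hochberg adjustment over 15253 genes. CPM were taken per TMM-scaled library size. The main edgeR fit was tested for *KD1* against *WT* on simulated counts. These had the same spread for every gene and culture, so that outlying cultures such as those seen here were not covered. The fits were repeated with DESeq2 1.42.0 and other scalings, filters, samples and a replicate block. Positions and lengths came from GENCODE of GRCm38, in a release other than that of the authors, which matched 53569 gene names, and promoters from RefSeq.

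The members and lists were chosen with earlier results of these data known. Named genes were all members, the 2 genes most like each among those with a mean log2 CPM above 1, up to 4 genes per list with the largest absolute value of their mean change over both lines among those that passed in a line, and *Irf3*, *Irf7*, *Traf3*, *Ifnb1*, *Cgas*, *Tmem173* and *Vangl2*. Beyond this rule, genes of a list that were too low to test, overlapping antisense genes, marker genes, *Nlrx1*, *Smurf1* and *Mex3c* were named after their values were seen. A gene that the rule names is not reported here.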

Additional observations from a re-analysis of the deposited data

Results flagged for a closer look

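For 5 of the 8 genes, the change against *WT* differed between the edited lines in the direct edgeR test of *KD2* against *KD1*. Over all genes tested, 34.8% were higher and 33% lower in that comparison. The change in *KD2* exceeded that in *KD1* by 0.59 for *Ddx58*, 0.51 for *Ifih1* and 0.32 for *Tbk1* on the log2 scale, with each *KD2* culture above each *KD1* culture. It was smaller for *Ikbke*, by -2.47, and for *Ticam1*, by -0.27, with each *KD2* culture below each *KD1* culture. The call of *Ticam1* was lost under 10 of 16 alternative settings. Genes within 2 Mb of *Ifih1* had a median of 0.28 in this comparison, and those of chromosome 2 had 0.32, where all genes had 0.02. The medians within 2 Mb were 0.01 for *Ddx58*, -0.10 for *Tbk1*, -0.23 for *Ikbke* and 0.21 for *Ticam1*. The part of the region in these differences was not tested. These lines are 1 clone each, and guide and clone cannot be told apart.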

How the results depend on the processing

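The 24 log2 fold changes of the 8 genes were recomputed under 16 alternatives, which gave 384 values, of which 347 kept direction and side of the threshold, 24 lost the call, 3 gained it and 10 changed sign. All sign changes were of values near 0 that did not pass. *Tbk1* in *KD1* became 0.01 with median-of-ratios size factors, 0.02 with a filter of at least 10 counts per culture, 0.00 with DESeq2, 0.03 with only the 6 cultures compared, and -0.03 to 0.02 with single cultures left out. *Dhx58* in *KD2* against *KD1* became -0.00 with no filter on low counts and -0.08 to 0.12 with single cultures left out, the lowest without *KD2* replicate 3. The calls lost were all of *Dhx58* against *WT* and of *Ticam1* between the edited lines. The number of genes lower in *KD2* than in *KD1* was 1 in place of 2 with library size alone, with the filter of 10 counts and with DESeq2, and 1 to 2 with single cultures left out; each time *Ticam1* was the gene lost. The calls gained were *Mavs* between the edited lines with library size alone (0.24, adjusted p = 0.0076) and *Tlr3* in *KD2* against *WT* and against *KD1* without *KD2* replicate 3. Library size alone moved the median of all genes to 0.12 in *KD2* against *WT* and 0.14 in *KD2* against *KD1*, from 0.01 and 0.02. For these losses and gains the cause was not tested. Among the lists, that filter left 2 of the 7 tested genes induced by sensing that rose in each line (1 past 2-fold, from 6), since fewer genes were tested. With library size alone, 7 inhibitors rose in *KD2* in place of 4 and 3 genes of DNA sensing fell in place of 5, as also with the filter of 10 counts. An activator fell in *KD1* in place of 0 with library size alone, with only the 6 cultures compared, with the replicate block and without *KD2* replicate 3.

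Same-numbered cultures did not deviate together (correlations of -0.0652 to 0.0789), so they share only a number. With the replicate block, 4 genes were higher in *KD1* in place of 5, since *Dhx58* lost its call (0.45, adjusted p = 0.065), and no other call of the 8 genes changed. *Ikbke* in *KD2* crossed the 2-fold limit under the settings named beside its value. Genes at or under 3 counts per culture could not be compared at this depth.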
